A study of Mus musculus with 12 samples.

Results

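The Schlafen genes described here are the 7 mouse genes Slfn1, Slfn2, Slfn3, Slfn4, Slfn5, Slfn8 and Slfn9, taken by name from 41325 genes counted by RNA sequencing. The cells were IMG, a wild type C57Bl6/J mouse line of immortalised microglia (macrophages that reside in the brain), all at 1 passage. The cells received a scramble control, oAb or fAb for 8 h, and each of these 3 groups held 4 libraries. Both agents are amyloid beta, a peptide that builds up in the brain in Alzheimer's disease. In the design text oAb is called fibrillar and fAb oligomeric, the reverse of what the letters would stand for, and the abbreviations are kept here without a choice between them. IMG is a single immortalised line, and nothing in the labels says that the libraries came from separate cultures. The p-values therefore measure the spread between these libraries, which may be technical. In bulk RNA, a change in the number of cells that express a gene and a change in RNA per cell cannot be told apart.

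Schlafen proteins take their name from the German word for sleep, because the first ones found in mouse thymocytes slowed growth. Many of the genes are switched on by type I interferon, and several of the proteins bind or cut transfer RNA. Mouse Schlafens are sorted by length. Slfn1 and Slfn2 are short proteins, Slfn3 and Slfn4 are intermediate, and Slfn5, Slfn8 and Slfn9 are long and carry a helicase-like end. Slfn2 keeps T cells and monocytes quiescent and shields transfer RNA from cutting by angiogenin. Slfn4 is known from myeloid cells, Slfn3 from T cells and gut epithelium, and Slfn5 from the nucleus, where its human counterpart has been linked to control of interferon-responsive transcription. Slfn8 and Slfn9 are mouse relatives of human SLFN11 and SLFN13, which act on transfer RNA.

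The 7 genes lie in 1 cluster of 263.806 kb on chromosome 11 (mm10, 82951349 to 83215154). In chromosome order these are Slfn5 (82951349 to 82964840, plus strand), Slfn9 (82978390 to 82991830, minus strand), Slfn8 (83002158 to 83020810, minus strand), Slfn2 (83065112 to 83070678, plus strand), Slfn1 (83116849 to 83122670, plus strand), Slfn4 (83175186 to 83190216, plus strand) and Slfn3 (83191330 to 83215154, plus strand). All are annotated as protein coding, with longest coding sequences of 337 codons for Slfn1, 378 for Slfn2, 640 for Slfn3, 602 for Slfn4, 884 for Slfn5 and 910 each for Slfn8 and Slfn9. The coding sequences of Slfn8 and Slfn9 were 92.7% identical and those of Slfn3 and Slfn4 92.3%, while Slfn1 and Slfn2 shared 71.3%. Slfn1 and Slfn2 were each closer to Slfn3 and Slfn4, at 73.7% to 75.3%. Slfn5 had no close copy among the 7, at 57.6% to 63.6% identity to the others. Slfn8 and Slfn9 were about as far from the short members, for example at 59.4% for Slfn2 and Slfn9. Reads could be split between close copies. Of all 50-base words in the exons, 15.6% of Slfn3, 14.6% of Slfn8, 11.5% of Slfn9 and 10.8% of Slfn4 also occurred in another gene, against 4.27% of Slfn2, 3.37% of Slfn5 and 0.606% of Slfn1. The counts of Slfn3, Slfn4, Slfn8 and Slfn9 are uncertain for this reason, and these shares do not bound the error. Part of the sharing was with genes outside the 7 members. Slfn10-ps held 10.1% of the Slfn8 words and 8.1% of the Slfn9 words, and no gene of that name was counted. Gm11427 held 6.45% of the Slfn3 words and 4.01% of the Slfn4 words. A gene with few counts can gain reads from a copy with many. Slfn3 had 886 counts over the scramble libraries and Slfn4 had 13, and in oAb these were 2770 and 311. How many reads were placed at the wrong copy was not tested.

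Because all 7 genes were higher in the treated cells, their promoters were read for sites of the factors that carry interferon and inflammatory signals. The windows are RefSeq promoters (GRCm38.p6, which is mm10) from 250 bases before to 50 after an annotated start, and all 7 members matched, Slfn8 with 2 overlapping windows. The interferon-stimulated response element was searched as GAAA, any 2 bases and GAAA again on both strands. It was found in Slfn5, Slfn8 and Slfn9, the 3 long members, and in 3.44% of 32851 promoter windows of the same length. Slfn8 and Slfn9 are close copies, so their matches are not independent, and the Slfn5 match runs into a stretch of A. Whether the family holds more matches than that share was not tested. The 3 windows are shown because they hold these matches, which are in capitals. In Slfn9 the capitals nearer the 5′ end are a match to the NF-kB motif.
Slfn5, chr11:82951852-82952151, plus strand: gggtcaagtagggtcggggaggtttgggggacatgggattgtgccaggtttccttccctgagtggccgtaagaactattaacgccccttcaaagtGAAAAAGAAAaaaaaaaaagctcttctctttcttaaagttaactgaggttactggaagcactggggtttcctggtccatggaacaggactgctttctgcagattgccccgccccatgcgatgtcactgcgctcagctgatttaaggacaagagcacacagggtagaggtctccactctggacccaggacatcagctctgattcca
Slfn8, chr11:83020761-83021060, minus strand: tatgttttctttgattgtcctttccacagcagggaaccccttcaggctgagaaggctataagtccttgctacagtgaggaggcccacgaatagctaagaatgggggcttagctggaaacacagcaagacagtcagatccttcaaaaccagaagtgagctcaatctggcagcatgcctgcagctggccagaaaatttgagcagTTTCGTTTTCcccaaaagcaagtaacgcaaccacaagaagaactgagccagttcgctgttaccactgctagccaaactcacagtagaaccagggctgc
Slfn9, chr11:82991781-82992080, minus strand: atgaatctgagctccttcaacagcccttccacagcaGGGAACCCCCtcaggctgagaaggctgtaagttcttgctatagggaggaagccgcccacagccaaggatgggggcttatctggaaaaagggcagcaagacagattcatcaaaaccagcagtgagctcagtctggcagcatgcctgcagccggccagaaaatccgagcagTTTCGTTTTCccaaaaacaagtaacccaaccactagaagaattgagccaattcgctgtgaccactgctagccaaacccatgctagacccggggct

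The interferon match began 155 bases before the RefSeq start of the window in Slfn5, 48 before it in Slfn8 and 45 before it in Slfn9. The Slfn5 window lies inside the gene as placed above, whose first base is 82951349, so this match is downstream of that base. In the other Slfn8 window the same match began 136 bases before the start. Slfn8 and Slfn9 carried the same 10 letters at this match, on the strand opposite to the motif as spelled. The NF-kB motif, which 4.51% of windows held, was matched in Slfn9 and in Slfn1, 43 bases before the Slfn1 start. That window is shown for comparison.
Slfn1, chr11:83116570-83116869, plus strand: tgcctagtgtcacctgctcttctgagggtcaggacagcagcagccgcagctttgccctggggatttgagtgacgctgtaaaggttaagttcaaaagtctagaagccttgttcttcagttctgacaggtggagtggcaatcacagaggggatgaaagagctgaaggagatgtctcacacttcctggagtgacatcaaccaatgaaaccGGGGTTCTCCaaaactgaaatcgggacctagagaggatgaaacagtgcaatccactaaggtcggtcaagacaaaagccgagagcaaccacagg

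None of these windows of the 7 genes held the interferon gamma element (TTC, any 3 bases and GAA), present in 8.3% of windows, and the windows of Slfn2, Slfn3 and Slfn4 held none of the 3 motifs. This says only that these letters are not in these windows.

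The libraries held 13638721 to 18124419 counts. Among the controls, scramble library 3 differed most (correlations of 0.944 to 0.965), and 11.6% of its counts were at 82 ribosomal protein genes, against 6.78% to 7.40% in the others. Libraries also fell into 2 sets by how counts divided between Timm23 and its near-identical copy Gm10273. Scramble libraries 2, 3 and 4 and oAb libraries 1 and 2 gave 94.6% to 98.3% of these counts to Timm23, and the other 7 libraries, among them all of fAb, 17.5% to 38.5%. Of 12 microglia and macrophage markers, none was at 0 in all libraries, though Tmem119 had a mean below 1 TPM in every group. The marker sum was 5161 to 5730 TPM in scramble, 3748 to 4185 in oAb and 3728 to 4047 in fAb. Mean P2ry12 fell as that sum did, from 7.16 TPM in scramble to 0.978 in oAb and 0.830 in fAb. Single markers did not all follow the sum. Mean Ptprc went from 43.9 TPM to 60.3 and 67.4, and mean Cx3cr1 from 40.8 to 54.6 and 55.6. TPM is a level scaled by gene length and library, which allows levels of different genes to be compared.

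Every Schlafen gene rose with both preparations. Counts were tested with edgeR's quasi-likelihood F test on the 8 libraries of a comparison, with Benjamini-Hochberg adjustment over all genes tested and a threshold of 0.05. With oAb, 7 of 7 members passed as higher, where 25.2% of all 11033 genes tested did and 27.0% passed as lower. With fAb, 7 of 7 passed as higher, against 27.6% of 11074 genes, with 28.8% lower. In both comparisons all 4 treated libraries lay above all 4 scramble libraries for each of the 7 members, a separation that 26.3% of genes showed with oAb and 28.9% with fAb. At least 4-fold rises are rarer, at 5.04% of genes for oAb and 5.08% for fAb, and were seen in 6 of 7 and 7 of 7 members. The median log2 fold change of the members was 3.71 with oAb and 3.68 with fAb, beside -0.07 and -0.04 over all genes tested. All 7 passed the filter on low counts, and Slfn1, Slfn4 and Slfn5 were so low in scramble that they passed through the treated libraries. The 2 comparisons share their scramble libraries.

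**Figure D1:**
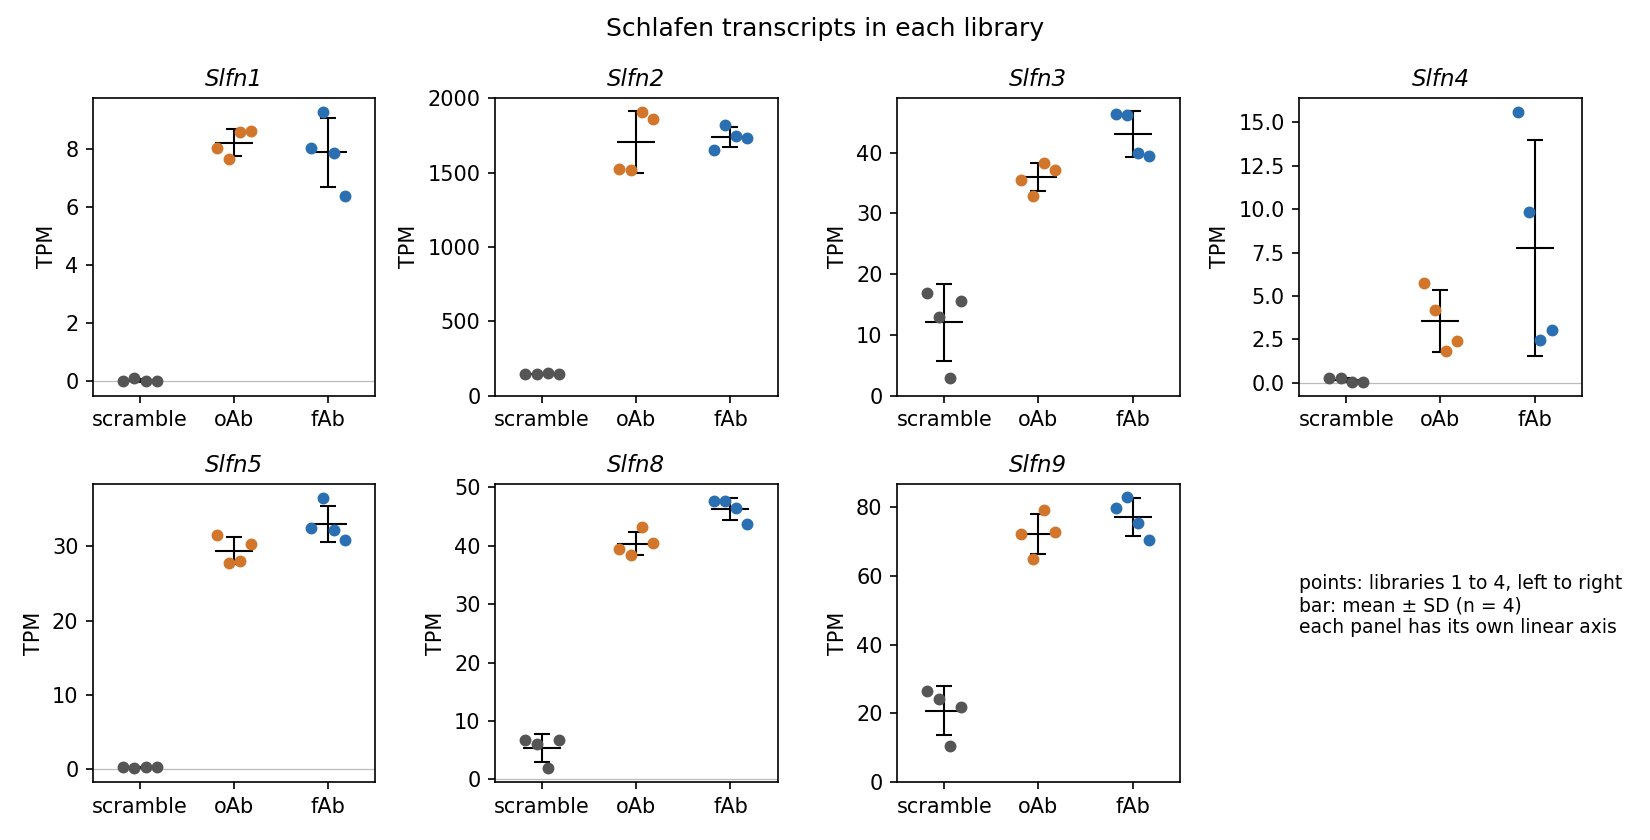
TPM of the 7 Schlafen genes (vertical axis, linear, its own range in each panel) in the 4 scramble, 4 oAb and 4 fAb libraries (horizontal axis). Points are libraries 1 to 4 from left to right and bars are mean ± SD; the treated libraries lie above the controls in every panel, and Slfn4 is the most scattered among treated libraries.

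Slfn2, the short member that keeps lymphocytes quiescent, was the dominant Schlafen transcript. Its level was 144, 146, 151 and 145 TPM in scramble libraries 1 to 4, 1528, 1521, 1909 and 1862 in oAb, and 1652, 1821, 1750 and 1737 in fAb. The controls were close to each other in TPM, and every treated library was far above the highest control. On the normalised CPM scale of the test, scramble library 3 was above the others, at 105.6 against 73.2, 76.6 and 79.1 in the oAb comparison. The log2 fold change was 3.71 ± 0.17 (SE, adjusted p = 1.29e-07) with oAb, a fold of 13.1, and 3.68 ± 0.14 (adjusted p = 6.14e-08) with fAb.

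Slfn1, whose forced expression blocks growth of thymocytes, was next to silent in the controls. It had 0, 1, 0 and 0 counts in scramble, 83, 74, 93 and 96 in oAb and 89, 105, 82 and 72 in fAb. In TPM these were at most 0.105 in scramble, 7.66 to 8.60 in oAb and 6.37 to 9.29 in fAb. With 1 count in all controls, the depth-scaled ratio was 379 with a 95% exact counting interval of 67.7 to 15032 for oAb, and 351 (62.6 to 13902) for fAb; the intervals cover counting error only. The adjusted p was 3.02e-07 with oAb and 5.1e-07 with fAb. Its level stayed far below that of Slfn2, at 0.483% ± 0.0358 (SD, n = 4) of the summed TPM of the pair in oAb and 0.451% ± 0.0623 in fAb.

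Slfn3 had a clear level before treatment. It stood at 16.9, 12.9, 2.95 and 15.5 TPM in scramble, 35.5, 32.9, 38.3 and 37.1 in oAb and 46.4, 46.2, 40 and 39.4 in fAb. Scramble library 3 lay far below the other controls. The log2 fold change was 1.82 ± 0.35 with oAb (adjusted p = 0.00189) and 2.03 ± 0.35 with fAb (adjusted p = 0.00093), and without scramble library 3 it was 1.53 and 1.74. With the library set as a term, the fAb value was 1.65 and no longer passed (adjusted p = 0.0541).

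Slfn4, the myeloid member and close copy of Slfn3, was nearly absent in scramble and varied most among the treated libraries. It had 6, 5, 1 and 1 counts in scramble, 126, 86, 42 and 57 in oAb, and 368, 236, 55 and 73 in fAb. Its level was 0.266, 0.246, 0.0445 and 0.0486 TPM in scramble, 5.74, 4.18, 1.82 and 2.40 in oAb, and 15.6, 9.81, 2.47 and 3.04 in fAb. In each of the 3 groups, libraries 1 and 2 were above libraries 3 and 4. The log2 fold change was 4.68 ± 0.53 with oAb (adjusted p = 6.91e-05) and 5.75 ± 0.81 with fAb (adjusted p = 0.000277). Among the libraries of the Gm10273 set, which hold 1 scramble library, the fAb value was 5.13 and did not pass (adjusted p = 0.107). The oAb value was 3.35 in that set and 5.53 in the Timm23 set, and passed in both. Slfn3 made up 98.7% ± 0.682 of the summed TPM of Slfn3 and Slfn4 in scramble, 91.0% ± 4.39 in oAb and 86.1% ± 9.16 in fAb.

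Slfn5, the nuclear long member, had one of the widest changes. Its level was 0.222, 0.0926, 0.279 and 0.304 TPM in scramble, from 8, 3, 10 and 10 counts. It was 31.5, 27.8, 28.1 and 30.3 TPM in oAb and 32.5, 36.5, 32.2 and 30.9 in fAb. The treated libraries were close to each other and far from the controls. The log2 fold change was 7.18 ± 0.24 (adjusted p = 2.02e-08) with oAb, a fold of 145, and 7.30 ± 0.24 (adjusted p = 1.97e-08) with fAb, a fold of 158. An antisense gene, Slfn5os, overlaps 8.8% of the Slfn5 exons and had no count in any library.

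Slfn8 went from 6.83, 6.11, 1.90 and 6.78 TPM in scramble to 39.4, 38.4, 43.2 and 40.4 in oAb and 47.6, 47.6, 46.4 and 43.6 in fAb. Its close copy Slfn9 went from 26.5, 24.3, 10.3 and 21.9 TPM to 72.1, 65.0, 79.3 and 72.8 in oAb and 79.9, 83.1, 75.4 and 70.5 in fAb. Scramble library 3 was the lowest control for both, as for Slfn3, while it was the highest control for Slfn2. The log2 fold change of Slfn8 was 3.13 ± 0.27 with oAb (adjusted p = 9.69e-06) and 3.28 ± 0.26 with fAb (adjusted p = 6.67e-06), and 2.90 and 3.05 without scramble library 3. Slfn9 rose by 2.03 ± 0.19 (adjusted p = 1.63e-05) and 2.07 ± 0.18 (adjusted p = 1.06e-05), and by 1.86 and 1.91 without that library. The pair shifted in makeup by the counts assigned to each copy, and how far misplaced reads enter was not tested. Slfn8 was 19.9% ± 3.36 (SD, n = 4) of their summed TPM in scramble, 35.9% ± 0.883 in oAb and 37.5% ± 0.838 in fAb, and the highest scramble library, at 23.6%, lay below the lowest treated one, at 35.2%.

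**Figure D2:**
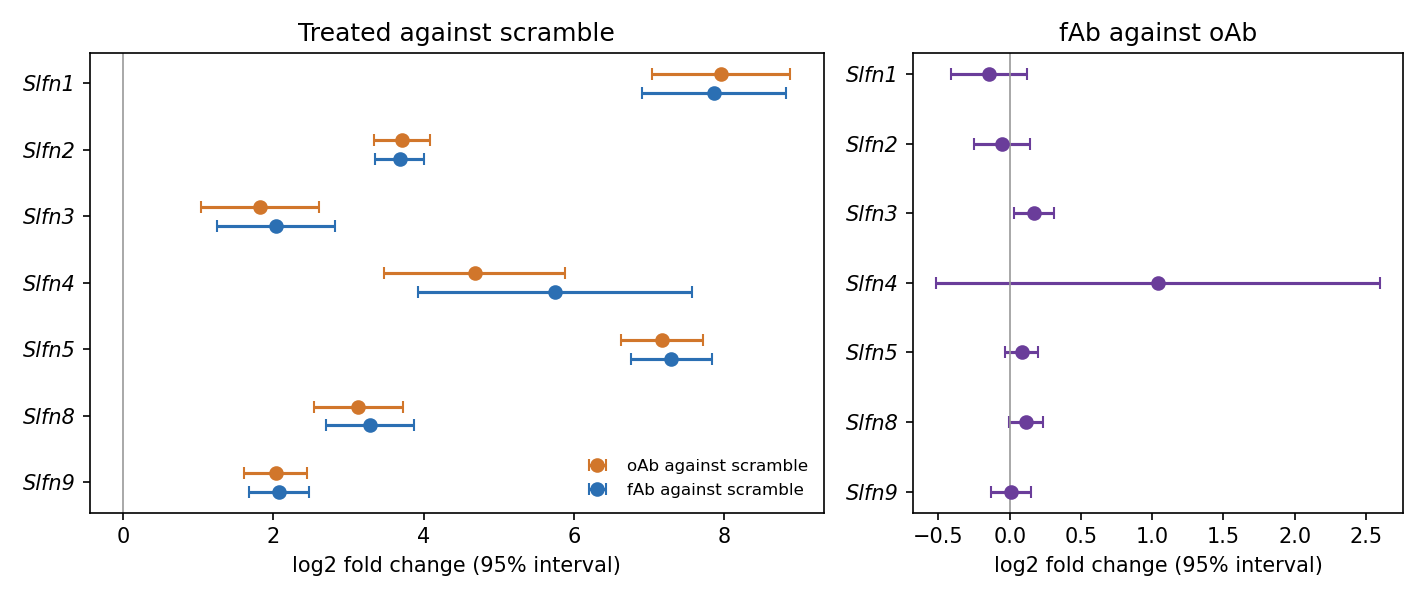
Log2 fold change with 95% interval (horizontal axis) of each Schlafen gene (vertical axis) for oAb and fAb against scramble on the left and fAb against oAb on the right, on separate scales. Slfn1 and Slfn5 have the widest changes and Slfn3 and Slfn9 the narrowest, and the fAb against oAb interval of Slfn4 runs from -0.52 to 2.60. The Slfn1 intervals against scramble are from the fit and rest on 1 count in all controls.

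The family as a whole took 185 ± 12.5 TPM (SD, n = 4) in scramble, 1895 ± 217 in oAb and 1955 ± 72.1 in fAb. Slfn2 made up 79.5% ± 7.56 of it in scramble, 89.9% ± 0.868 in oAb and 89.0% ± 0.967 in fAb, with 90.7% in scramble library 3 and 74.0% to 77.0% in the other controls. In scramble the order by mean TPM was Slfn2, Slfn9, Slfn3, Slfn8, Slfn5, Slfn4 and Slfn1. The library ranges of neighbours in that order overlapped for Slfn9 and Slfn3, Slfn3 and Slfn8, Slfn5 and Slfn4, and Slfn4 and Slfn1. In oAb the order was Slfn2, Slfn9, Slfn8, Slfn3, Slfn5, Slfn1 and Slfn4, with no overlap between neighbours. The order in fAb was the same, but the ranges of Slfn8 and Slfn3 and of Slfn1 and Slfn4 overlapped. Slfn5 thus stood at 0.224 ± 0.0944 TPM in scramble, below Slfn8 and Slfn3, and at 29.4 ± 1.79 TPM in oAb, on the scale of those genes.

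The comparison of fAb with oAb asks whether the preparations differ from each other. No member passed, in a test that called 0.00% of 10878 genes (0 with edgeR, 16 with DESeq2, and 1391 at an unadjusted p under 0.05). The differences were narrow for 6 members. Slfn2 differed by a log2 fold change of -0.05 (95% interval -0.25 to 0.14), Slfn1 by -0.15 (-0.42 to 0.12), Slfn5 by 0.08 (-0.03 to 0.20), Slfn8 by 0.11 (-0.01 to 0.23) and Slfn9 by 0.01 (-0.13 to 0.15). Slfn3 differed by 0.17 (0.03 to 0.31), with an unadjusted p of 0.0207 and an adjusted p of 0.375, and for none of the 7 members did all 4 fAb libraries lie above all 4 oAb libraries, as 2.98% of genes did. Slfn4 had the widest interval, at 1.04 (-0.52 to 2.60, adjusted p = 0.498), and only 9 genes had a larger log2 fold change. Over the alternatives the Slfn4 value ran from 0.34 among libraries 3 and 4 to 1.77 in the Gm10273 set and passed in none. It was 0.47 without fAb library 1, 1.37 without oAb library 1, 1.76 with the library set as a term, and 0.90 (adjusted p = 0.177) with libraries 1 and 2 set against 3 and 4 as a term.

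**Figure D3:**
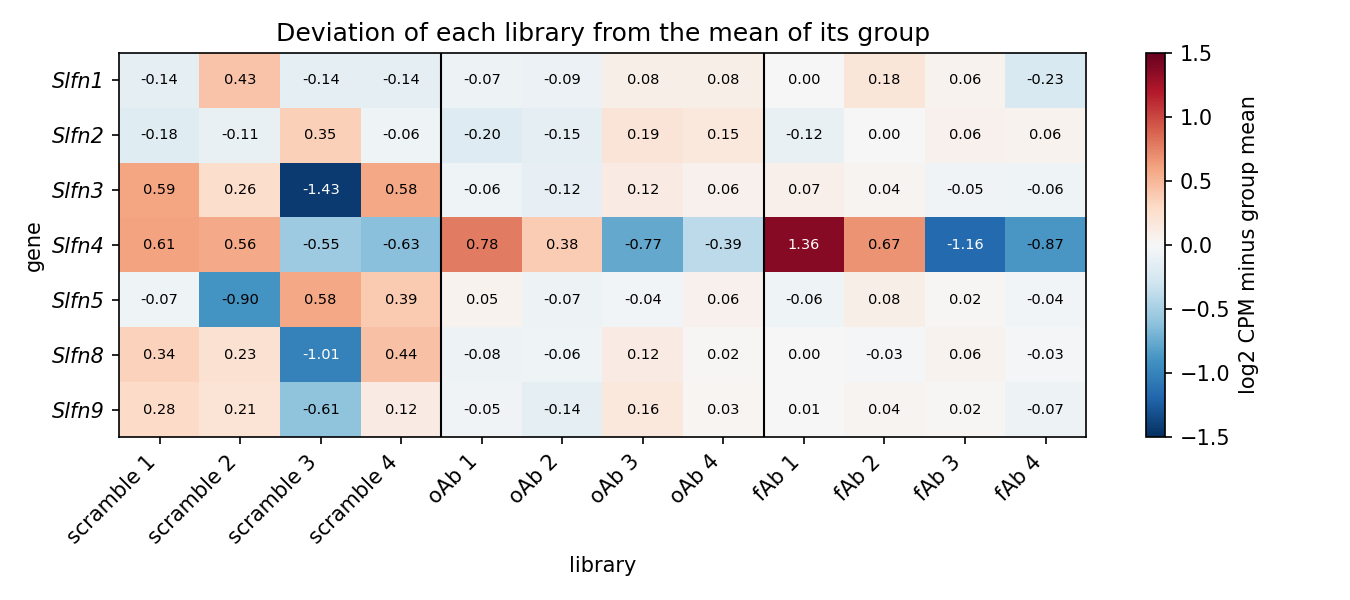
Log2 CPM of each library minus the mean of its group (colour and printed value) for the 7 Schlafen genes (rows) in the 12 libraries (columns). Scramble library 3 is low for Slfn3, Slfn8 and Slfn9, and Slfn4 is high in libraries 1 and 2 and low in libraries 3 and 4 of each group.

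Slfn4 had the widest spread of the 7 members among the oAb and among the fAb libraries. Its SD of log2 CPM (counts scaled to library size) was 1.21 among the fAb libraries, and 35 of 11208 genes, or 0.312%, had a larger one. Among the oAb libraries it was 0.70, with 2.26% of genes above it. Slfn8, by contrast, had an SD of 0.04 in fAb, with 91.2% of genes above it. In scramble, Slfn3 had an SD of 0.97, with 2.13% of genes above it, and scramble library 3 deviated from the group mean by -1.43 on the log2 scale.

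Interferon signalling genes moved in the same samples. A list of 20 genes for the interferon ligand, receptors, kinases, transcription factors and feedback inhibitors had 19 tested. With oAb 14 were higher and 2 lower (median log2 fold change 1.18), and with fAb 14 were higher and 3 lower (median 1.19), beside 25.2% and 27.6% of all genes higher and 27.0% and 28.8% lower. The ligand gene Ifnb1 was too low to test, with 0 or 1 count in each scramble library, 2 to 5 in oAb and 3 to 6 in fAb. Of the 2 chains of the type I receptor, Ifnar1 had a log2 fold change of 0.53 ± 0.11 with oAb (adjusted p = 0.00251) and 0.64 ± 0.10 with fAb, and Ifnar2 of 0.06 ± 0.15 (adjusted p = 0.751) and -0.03 ± 0.16. Stat2 and Irf9, transcription factors that act at the response element, rose with oAb by 3.30 ± 0.17 and 2.41 ± 0.10, and with fAb by 3.42 ± 0.17 and 2.46 ± 0.08. Irf7, the factor that amplifies interferon production, rose by 7.80 ± 0.13 and 7.64 ± 0.15, and Irf1 by 1.85 ± 0.09 and 1.98 ± 0.09. The feedback inhibitors Usp18 and Socs1 rose by 8.28 ± 0.19 and 4.63 ± 0.78 with oAb and by 8.25 ± 0.16 and 3.65 ± 0.53 with fAb. Socs1, which is among the 14 higher, was near the floor. Its mean was 0.12 CPM in scramble and 2.93 ± 1.97 (SD) in oAb, and it passed the filter on low counts through the treated libraries.

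A list of 24 interferon-induced genes was higher throughout, 24 of 24 in both comparisons, beside 25.2% of all genes with oAb and 27.6% with fAb. The median log2 fold change was 7.29 with oAb and 7.43 with fAb. Some of the 24, such as Zbp1 (mean of 0 CPM in scramble) and Gbp5 (0.03), passed the filter on low counts through the treated libraries. These lists are known to respond in these libraries and are not independent evidence. The median over the 7 Schlafen genes was 3.71 and 3.68. Slfn5 was at the scale of that list, as was the fitted Slfn1 value of 7.96 with oAb, which rests on 1 control count. Beside them were Cmpk2 (8.41 ± 0.13 with oAb), a nucleotide kinase, Oasl2 (7.89 ± 0.13), a 2-5A synthetase relative, and Rtp4 (6.49 ± 0.11), a receptor transporter. Neither list had a member past the threshold in fAb against oAb, where 0.00% of 10878 genes passed.

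Genes of transfer RNA cutting and ribosome stress, the processes that Schlafen proteins act on, formed the last list. Of 16 tested, 6 were higher and 4 lower with oAb (median 0.25), beside 25.2% of all genes higher and 27.0% lower. With fAb 6 were higher and 5 lower (median 0.12), beside 27.6% and 28.8%. The lower calls were near the share over all genes. Ang, which encodes the angiogenin against which Slfn2 shields transfer RNA, fell from 25 to 48 counts in the scramble libraries to 2 to 5 in oAb and 2 or 3 in fAb, a log2 fold change of -3.33 ± 0.33 (adjusted p = 2.59e-05) and -3.70 ± 0.30 (adjusted p = 7.73e-06). Nsun2, a transfer RNA methyltransferase, had 0.40 ± 0.09 and 0.47 ± 0.08.

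Genes around the cluster were read beside the members. Of 42 other genes within 500 kb, 19 were tested with oAb, of which 11 were higher and 1 lower, beside 25.2% and 27.0% of all genes. With fAb 18 were tested, of which 10 were higher and 1 lower, beside 27.6% and 28.8%. Before the cluster, the nearest tested gene, Nle1, had a log2 fold change of 0.33 ± 0.17 with oAb (adjusted p = 0.134) and 0.07 ± 0.17 with fAb. Rad51d, a DNA repair gene, fell by 0.43 ± 0.14 and 0.46 ± 0.13, and Rffl, a ubiquitin ligase gene, rose by 0.90 ± 0.10 and 1.06 ± 0.09. After the cluster AI662270 had 0.48 ± 0.09 and 0.54 ± 0.09 and Ap2b1, an adaptor of endocytosis, 0.81 ± 0.12 and 0.82 ± 0.10. Farther on lie the chemokine genes, which rose with both preparations. Ccl5 rose by 11.30 ± 0.22 with oAb and 11.06 ± 0.18 with fAb, Ccl4 by 5.90 ± 0.12 and 6.02 ± 0.10, Ccl3 by 5.27 ± 0.13 and 5.33 ± 0.12, and Ccl9 by 3.51 ± 0.12 and 3.57 ± 0.10. Heatr9, beside Ccl5, had no count in scramble, 15 to 18 counts in oAb and 7 to 19 in fAb. None of the 5 other genes lying between members had enough counts to be tested.

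**Figure D4:**
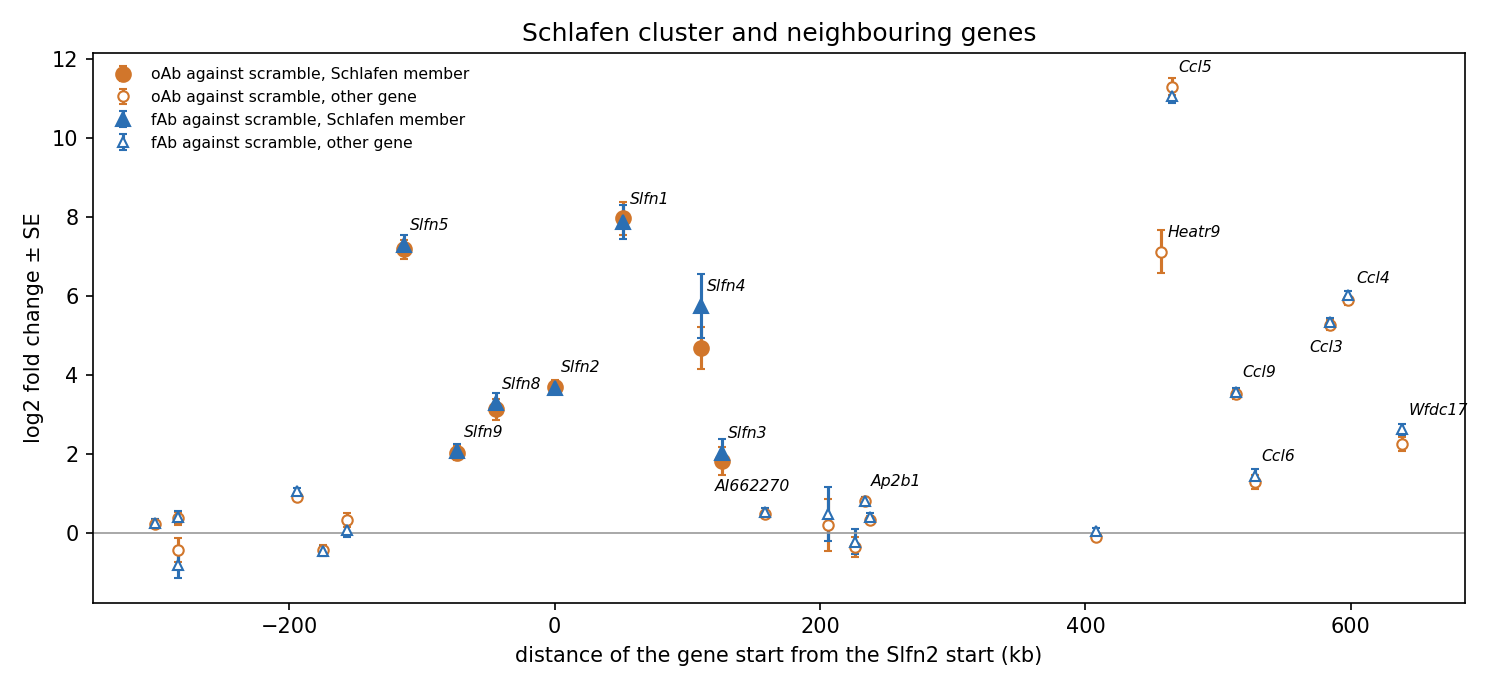
Log2 fold change ± SE (vertical axis) of Schlafen genes (filled) and other tested genes within 500 kb (open) by distance of the gene start from the Slfn2 start in kb (horizontal axis), for oAb (circles) and fAb (triangles) against scramble. The 7 Schlafen genes lie above most genes next to them, and a further group of high values is formed by the chemokine genes.

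The genes whose log2 CPM followed each member most closely over the 12 libraries were taken from the 3 highest Pearson correlations among 9775 genes, as a description, since all 12 points share the treatment. They were Il6, Mx1 and Nos2 for Slfn1, Serpina3f and Lgals9 for Slfn2, Zfp462, Plekhm3 and Diaph2 for Slfn3, Tnfsf10, Tnfrsf8 and Bcl2a1b for Slfn5, Zc3h12c, Rnf213 and Slc39a14 for Slfn8, and Ero1l, Plek and Fyb for Slfn9, all at r of 0.997 or more. Slfn4 had lower values, at 0.989 for Zcchc4, 0.988 for Nup88 and 0.987 for Clec2d.

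Since Schlafens are known from lymphocytes and other myeloid cells, markers of other cell types were read beside them. Of the 6 T cell markers 4 were at 0 in all 12 libraries, and the summed level was 1.82 to 2.80 TPM in scramble, 7.90 to 10.0 in oAb and 8.42 to 9.35 in fAb. Nearly all of it was Lck, a kinase gene, at 2.03, 8.91 and 8.92 TPM on average. Of 6 granulocyte and monocyte markers 4 were at 0, and the sum was 1.27 to 3.29, 0.394 to 0.969 and 0.670 to 1.60 TPM. B cell markers summed to at most 0.118 TPM, with 2 of 4 at 0. Oligodendrocyte markers summed to 26.4 to 48.1 TPM in scramble, 13.9 to 15.3 in oAb and 15.6 to 16.7 in fAb, with 2 of 4 at 0. Neuron markers, with 3 of 4 at 0, summed to 0.139 to 0.716 TPM in scramble, 1.67 to 2.12 in oAb and 1.61 to 2.19 in fAb. Fibroblast markers, with 1 of 4 at 0, summed to 0 to 0.0748 TPM, 1.12 to 1.67 and 0.875 to 1.38. Astrocyte markers, with 1 of 4 at 0, summed to at most 0.342 TPM in any library. The part of these signals in the Schlafen values was not tested.

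In the authors' deposited tables, the fold changes with oAb were 260 for Slfn1, 148 for Slfn5, 26.3 for Slfn4, 13.2 for Slfn2, 8.88 for Slfn8, 4.12 for Slfn9 and 3.58 for Slfn3. With fAb the authors' deposited table gives 241 for Slfn1, 158 for Slfn5, 55.2 for Slfn4, 12.9 for Slfn2, 9.73 for Slfn8, 4.20 for Slfn9 and 4.09 for Slfn3. A further 3 genes named as Schlafens, Slfn14, Slfnl1 and Slfn5os, had no count in any library.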

How the data were processed

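Libraries were made from total RNA with a stranded mRNA kit, per the labels' protocols. The file headers mark the reads as trimmed. The submitters' processing notes name mm10 as build. For aligner, counter and use of strand, details were not given in the sources used here. Per the file headers, the 2 deposited tables hold counts per gene, RPKM and TPM, and the control counts are the same in both. Deposited columns headed CPM do not sum alike between libraries, were treated as a signal and were not used. The authors' deposited signed fold change is treated as a score from a test not given in the sources used here.

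Testing was with edgeR 4.0.16 in R 4.3.3 on counts (filterByExpr with a minimum count of 10, TMM, robust quasi-likelihood F test, two-sided, Benjamini-Hochberg, threshold 0.05) on the 8 libraries of each comparison. Levels between genes were compared in TPM. The members and lists were chosen with earlier results of these data known. Named are the members, the 3 genes of each list with the smallest p for oAb, 10 interferon signalling genes, tested neighbours and the 3 genes most like each member; some genes that this rule names are not reported here. Alternatives were DESeq2 1.42.0, limma 3.58.1 (voom, and TPM with pseudocounts of 1 and 0.1), other scaling and filters, a block, a threshold of 0.01, a 1.5-fold minimum and each library left out. Settings by library set or number were added after seeing the data. Same-numbered fAb and scramble libraries deviated together (correlations 0.12 to 0.22), which pairs them by a preset rule from the data. No label pairs them, and the main test left the pairing out. With the block no Schlafen call changed, and the fAb value of Slfn3 was 2.15 (adjusted p = 0.00218). Coding identities and shared words come from GENCODE M21. Replicate libraries all differed by more than counting noise. The test was checked on simulated counts drawn independently for each library. The simulated counts held no library sets, so the check does not cover these.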

Additional observations from a re-analysis of the deposited data

Results flagged for a closer look

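Among 21 groups of 4 values (the TPM of each member in each group), 2 held a library far from the others by Dixon's test, where chance flags about 1 in 20. Slfn8 was at 1.90 TPM in scramble library 3, below the other controls, with a gap of 0.854 of the group's range. Slfn1 was at 0.105 TPM in scramble library 2, which is a single count where the other controls had 0.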

How the results depend on the processing

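For the 7 members against scramble, 354 of 357 values under other settings kept their direction and passed, and none reversed. The 3 that no longer passed were for fAb, namely Slfn3 with the library set as a term (1.65, adjusted p = 0.0541), Slfn3 among libraries numbered 3 and 4 (2.26, adjusted p = 0.0619) and Slfn4 in the Gm10273 set (5.13, adjusted p = 0.107). For fAb against oAb, 174 of 175 did not pass, and Slfn3 passed among libraries numbered 1 and 2 (0.32, adjusted p = 0.00516). The sign of the small Slfn1, Slfn2 and Slfn9 differences changed under some settings, with ranges of -0.32 to 0.02, -0.21 to 0.07 and -0.10 to 0.13. Without scramble library 2 the controls hold no Slfn1 count, and the fitted value of 9.49 with oAb and 9.44 with fAb is then no measure of size.

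The count of all genes past the threshold was 5761 for oAb against scramble and moved to 2604 with a 1.5-fold minimum, 3792 in the Timm23 set and 3441 among libraries numbered 3 and 4. For fAb against scramble it was 6235, and moved to 2863 with a 1.5-fold minimum, 3844 with the library set as a term and 3337 among libraries numbered 3 and 4. For fAb against oAb it was 0, and became 16 with DESeq2, 2573 among libraries numbered 1 and 2 and 3 among those numbered 3 and 4. Leaving out each library gave 4962 to 7174, 5517 to 7598 and 0. With the replicate block the counts were 5081, 6292 and 0. Under upper quartile scaling the all-gene median was -0.24 and -0.23, with 2127 higher and 4015 lower for oAb and 2273 and 4361 for fAb, against 2777 and 2984, and 3051 and 3184. The cause was not tested. Slfn1 and Slfn4 have few control counts, which limits the precision of their folds.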

Other observations

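The 10 genes whose within-group deviations over the 12 libraries were most like those of Slfn4, chosen after their values were seen, were Rad51ap1, Taf1d, Ankrd10, Snhg12, Cep44, Snrnp48, Rsrp1, Snx14, Ccnl2 and Armt1, at r of 0.941 to 0.969. In each of them libraries 1 and 2 lay above libraries 3 and 4 in all 3 groups. Rsrp1, an arginine and serine rich protein gene, had 154, 126, 73.2 and 52.5 normalised CPM in scramble libraries 1 to 4, 77.1, 66.0, 33.4 and 33.6 in oAb, and 111, 77.8, 39.2 and 41.8 in fAb. Snhg12, a small nucleolar RNA host gene, had 16.1, 14.3, 8.40 and 5.40 in scramble, 10.3, 9.03, 5.25 and 4.58 in oAb and 18.4, 13.5, 5.51 and 6.45 in fAb. The part of this pattern in the Slfn4 values was not tested.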
